A study of Mus musculus with 6 samples.

Results

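Mitochondrial ribosomal proteins are encoded in the nucleus, made in the cytosol and imported into mitochondria, where they join the ribosomal RNAs of the mitochondrial genome. The mitochondrial ribosome makes the few proteins that this genome encodes, all of them subunits of the respiratory chain and the ATP synthase. Its small subunit reads the messenger RNA and its large subunit joins the amino acids, and both hold proteins with bacterial relatives beside proteins found only in mitochondria. The genes examined were all those whose name starts with Mrps or Mrpl followed by a number and whose mean was at least 1 FPKM (fragments per kilobase of transcript, scaled to library size) over 6 RNA-seq libraries. This gave 76 genes of 10865 at that level and of 23284 listed, 29 named Mrps and 47 named Mrpl. The level filter removed no gene: all 76 names passed it, and the lowest, Mrpl17, had a mean of 5.06 FPKM, so there was none just outside it. The family was chosen by measured values: Mrps36 and Mrpl47 stood among the genes with the most negative differences between CTLA4-Ig and control IgG in these libraries. The comparison of the treatments is therefore a description for every gene of the family.

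The libraries came from EGFP-positive cells sorted from the calvaria of CX3CR1-EGFP mice, in which the reporter marks cells that use the fractalkine receptor gene, among them monocytes and osteoclast precursors. All mice had received lipopolysaccharide (LPS) at the calvarial periosteum, together with 10 mg/kg of either CTLA4-Ig (abatacept, a fusion protein that binds CD80 and CD86) or whole human IgG, and cells were sorted 5 days later. There were 3 libraries per group, numbered as biological replicates, and the labels give neither the age of the mice nor which animals each library came from. The values therefore show the spread between these libraries, which may be technical in part. No group without LPS was part of the comparison.

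The spacing of low values, which reflects what 1 fragment is worth, gave depths of 8670000 to 10580000 fragments (CTLA4-Ig) and 8760000 to 9330000 (control IgG). At this depth a mitochondrial ribosomal protein gene rested on about 69 fragments per library for Mrpl41 to 2222 for the gene with the most, with a median of 345, taking the median length of its annotated transcripts. Fragment counting alone then gives a coefficient of variation of 5.38% for the median gene and 12.0% for Mrpl41, and this covers counting error only. The observed coefficient of variation within groups had a median of 6.53% over the genes, and for 22 of 76 it was at or under the counting value. Of 15 monocyte and macrophage markers, 14 had a mean of at least 1 FPKM. Neutrophil markers were also high: 18 genes, none of them under 1 FPKM throughout, summed to 175864 to 242496 FPKM in CTLA4-Ig libraries and 136744 to 155756 in controls, without overlap. Most of that sum came from S100a8 and S100a9 (means of 71438 and 64702 FPKM). On the log2 scale 14 of the 18 were higher on average with CTLA4-Ig and 4 were lower. Of 10 osteoclast markers 5 stayed under 1 FPKM in all libraries, among them Ocstamp, Dcstamp and Calcr, while Nfatc1 (23.9 FPKM), Acp5 (20.2), Itgb3 (9.63) and Ctsk (3.00) had means above it. Of 8 B cell markers 4 stayed under 1 FPKM in all libraries, among them Ms4a1 and Pax5, while Cd79b had a mean of 12.3 FPKM and Cd79a of 2.67. The 8 summed to 16.4 to 22.9 FPKM with CTLA4-Ig and 14.2 to 23.9 in controls. Higher sums came from NK cell markers (107 to 157 and 125 to 147) and dendritic cell markers (144 to 190 and 137 to 197). The highest means in those 2 lists were those of Nkg7 (92.1 FPKM) and Bst2 (102). In control library 1 the erythroid markers summed to 9.46 FPKM, against 86.3 to 151 in the other 5.

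NRF1, ETS factors such as GABP, and YY1 are known to drive many nuclear genes for mitochondria. RefSeq promoters of 300 bases (build GRCm38.p6), from 250 bases before the start to 50 after it, were matched by symbol for 67 of the 76 genes, with 73 promoters in all. Promoters for Mrpl4, Mrpl13, Mrpl15, Mrpl19, Mrpl38, Mrpl54, Mrps28, Mrps34 and Mrps35 were not used here. Both strands were searched, and no match of one motif overlapped a match of another. The NRF1 letters (GCGCA, any base, then GCGC) were found in 12 promoters (16.4%), against 10.5% of the promoters of all genes at 1 FPKM or more and 4.60% of all promoters. The letters CCGGAAG (ETS) were found in 24 (32.9%), against 18.6% and 8.86%, and AAGATGGCG (YY1) in 8, against 3.28% and 1.40%. At least 1 of the 3 was in 39 of 73 promoters (53.4%), against 29.1% and 13.6%. The ETS letters were in 11 of 27 Mrps promoters (40.7%) and 13 of 46 Mrpl promoters (28.3%), and the NRF1 letters in 3 (11.1%) and 9 (19.6%). The TATA letters TATAAA were in 5 of 73 (6.85%), beside 6.81% of the promoters of genes at 1 FPKM or more.

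The stretches of 60 bases below come from before the RefSeq start of 5 of the genes whose libraries did not overlap between the groups. They are a selection from 11 such genes, and no link between letters and differences was tested. Of those not shown, Mrpl1 and Mrpl50 held no match to the 3 motifs. Mrpl37 and Mrps24 held only a YY1 match after the start, and promoters of Mrpl13 and Mrps28 were not used. In the GENCODE annotation used below, Mrpl47 reaches to 32737605 and Mrpl51 begins at 125191801, so their stretches lie inside those genes. All stretches read 5′ to 3′ on the strand of the gene, and capitals mark a match to one of the 3 motifs. The match is to NRF1 at position -91 from the start in Mrps21, to NRF1 at -81 in Mrpl12 and to ETS at -90 in Mrpl51. Their places in GRCm38.p6 are chr3:95871556-95871615 (minus strand) for Mrps21, chr11:120484546-120484605 (plus) for Mrpl12, chr6:125192100-125192159 (plus) for Mrpl51, chr3:32736756-32736815 (minus) for Mrpl47 and chr13:100744660-100744719 (minus) for Mrps36.
Mrps21: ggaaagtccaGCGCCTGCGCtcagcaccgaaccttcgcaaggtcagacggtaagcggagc
Mrpl12: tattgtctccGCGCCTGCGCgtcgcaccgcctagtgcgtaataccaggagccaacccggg
Mrpl51: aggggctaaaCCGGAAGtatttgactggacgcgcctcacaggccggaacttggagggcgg
Mrpl47: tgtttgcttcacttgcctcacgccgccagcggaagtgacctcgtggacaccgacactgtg
Mrps36: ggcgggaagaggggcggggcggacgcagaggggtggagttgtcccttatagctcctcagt
The promoters of Mrps36 and Mrpl47 held no match to the 3 motifs in their 300 bases, and that of Mrps21, which was higher with CTLA4-Ig, held an ETS match after the start beside the NRF1 match shown. A match describes letters only.

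Many of these genes sit head to head with another protein-coding gene. In the GENCODE annotation (release M21, GRCm38) 32 of 76 (42.1%) had a neighbour on the opposite strand whose 5′ end lay within 1000 bases, 9 of 29 Mrps and 23 of 47 Mrpl genes. Among all protein-coding genes at 1 FPKM or more this was so for 1659 of 9483 (17.5%). One pair joins both subunits: the GENCODE starts of Mrpl46 and Mrps11 on chromosome 7 lie 412 bases apart, with means of 16.6 and 17.0 FPKM. Neighbours could differ widely in level: Mrpl49 had a mean of 22.7 FPKM and Fau, 59 bases away and a source of a cytosolic ribosomal protein, had 1998. The exons of 17 of the 76 overlap exons of another protein-coding gene, 15 of them on the opposite strand and 2 on the same. The library kit marks strand, but whether the authors' counting used strand is not given in the sources used here. Values of the 15 are therefore uncertain, among them Mrpl13, Mrpl21, Mrpl47 and Mrps30, which are described below. Strand cannot separate the 2 on the same strand, Mrpl53 and Mrps6, so their values are uncertain in either case. The 76 genes lie on 17 chromosomes, with at most 10 on one (chromosome 11).

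All 76 genes were expressed in every library, at levels that differed far more between genes than between libraries. The highest mean was 75.8 times the lowest, whereas the highest library was 1.20 times the lowest for the median gene and 1.65 times at most, in Mrpl52. Means were above 100 FPKM for 5 genes, from 10 to 100 for 63 and under 10 for 8, and 64 lay above the median of all genes at 1 FPKM or more, 14.4 FPKM. The median of the Mrpl genes was 34.0 FPKM and that of the Mrps genes 26.1. Together they made up 0.430, 0.375 and 0.395% of the FPKM sum in CTLA4-Ig libraries 1 to 3, and 0.459, 0.443 and 0.455% in the controls. The FPKM sum itself was 770271 to 851706 with CTLA4-Ig and 726358 to 759683 in controls, so these shares also depend on the other genes. Longer genes had lower FPKM (Spearman's rho -0.58 across 76 genes between mean FPKM and annotated transcript length, which enters FPKM itself), so the order of levels rests partly on lengths.

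**Figure D1:**
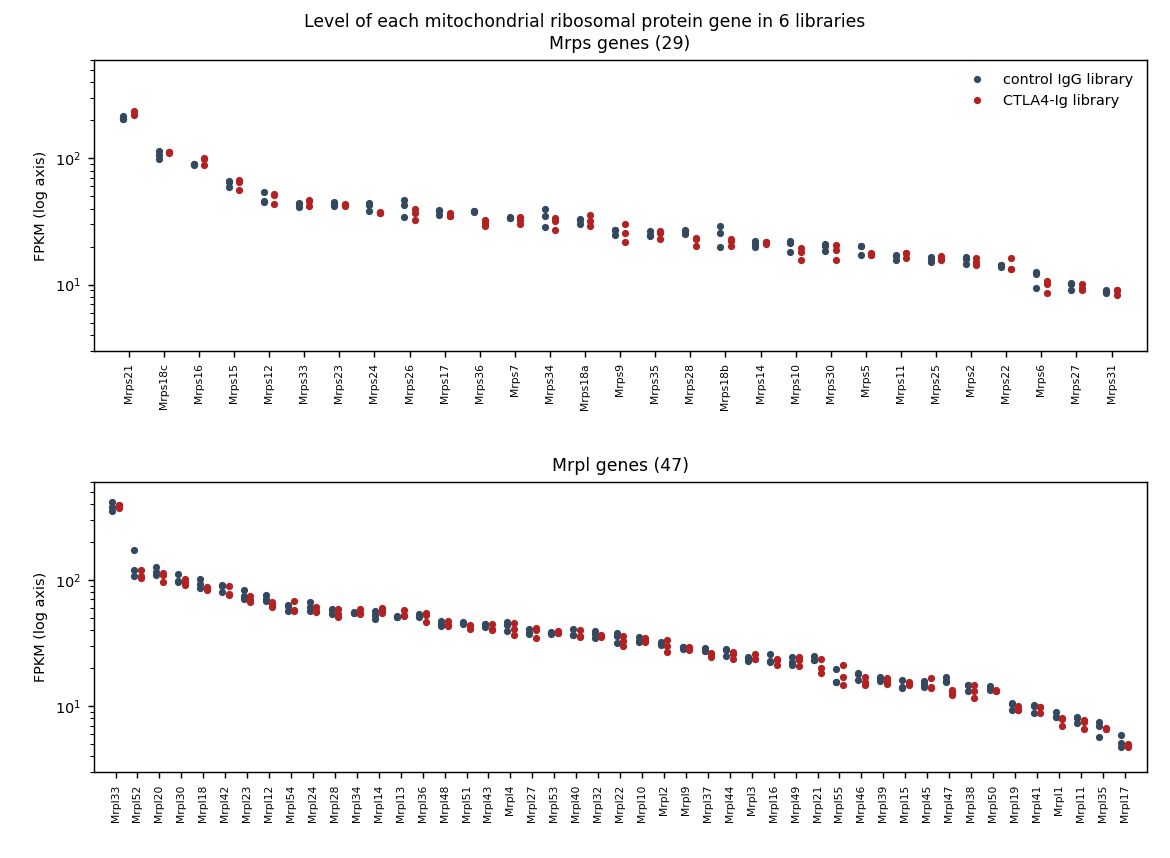
FPKM (log axis) of the 29 Mrps and 47 Mrpl genes in each library, ordered by mean; dark points are control IgG libraries and red points CTLA4-Ig libraries. Genes spread from 5.06 FPKM (Mrpl17) to 383 FPKM (Mrpl33), while the 6 libraries of a gene lie close together.

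In the large subunit Mrpl33, of a family shared with bacteria, was the highest, at 369, 394 and 392 FPKM with CTLA4-Ig (libraries 1 to 3, in this order throughout) and 415, 378 and 351 with control IgG. Its groups overlapped widely. Mrpl52, a protein found only in mitochondria, stood at 120, 104 and 108 against 172, 108 and 120 FPKM, so control library 1 stood apart from the other 5. Mrpl20 stood at 109, 96.8 and 113 against 127, 115 and 109 FPKM. The lowest of the large subunit genes were Mrpl17 at 5.06, Mrpl35 at 6.67 and Mrpl11 at 7.59 FPKM (means of 6). These 3 all have bacterial relatives. The 30 large subunit genes of bacterial families had a median of 35.2 FPKM and the 17 found only in mitochondria 26.7.

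Among Mrps genes the highest was Mrps21, a small subunit protein of a bacterial family, with a mean of 219 FPKM, followed by Mrps18c at 110 and Mrps16 at 93.1. The lowest were Mrps31 at 8.84, Mrps27 at 9.74 and Mrps6 at 10.6 FPKM. The 16 small subunit genes of bacterial families had a median of 29.6 FPKM and the 10 found only in mitochondria 24.2. Mrps18a, Mrps18b and Mrps18c encode related proteins that occupy different places: Mrps18c and Mrps18b sit in the small subunit, and Mrps18a in the large subunit in spite of its name. Their means were 32.2, 23.4 and 110 FPKM for Mrps18a, Mrps18b and Mrps18c. In all 6 libraries Mrps18c was the highest of the 3. Mrps30, the other Mrps protein of the large subunit, stood at 20.5, 15.7 and 18.7 FPKM with CTLA4-Ig and 20.4, 18.5 and 21.1 in controls.

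The study asked how CTLA4-Ig changes gene expression in osteoclast precursors. No mitochondrial ribosomal protein gene passed the test across all genes: with limma on log2(FPKM + 1), 0 of 76 and 0 of 10865 (0%) had a Benjamini-Hochberg adjusted p under 0.05. At an unadjusted p under 0.05, 3 of 76 were lower with CTLA4-Ig, where 1.98% of all genes were, and 0 were higher, where 4.09% were. The 3 were Mrps36, Mrpl47 and Mrps28. Every CTLA4-Ig library lay outside the range of the controls for 9 lower genes (11.8%), against 5.69% of all genes, and for 2 higher genes (2.63%), against 6.50%. The rule for the group drew on this comparison, so these shares are given side by side only.

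Mrps36 is named as a ribosomal protein but is known as an adaptor of the 2-oxoglutarate dehydrogenase complex of the citric acid cycle (chromosome 13, 100735955 to 100744659, GRCm38). It stood at 29.1, 30.7 and 32.8 FPKM with CTLA4-Ig and 37.5, 38.1 and 38.4 in controls. Every CTLA4-Ig library was below every control library, and the controls lay closer together. The means were 30.9 ± 1.88 and 38.0 ± 0.458 FPKM (SD, n = 3), with -0.29 ± 0.06 (SE) as log2 fold change. All fold changes here were taken after adding 1 FPKM, which understates them for low genes. GENCODE names 3 pseudogenes after Mrps36, so its value is uncertain if the counting divided reads among such copies. The other subunits of that complex had smaller differences: the log2 fold change was -0.10 ± 0.07 (SE) for Dld, -0.03 ± 0.07 for Ogdh and 0.02 ± 0.05 for Dlst. Leaving out CTLA4-Ig library 1 gave -0.05 for Dld. Ogdh was 0.02 without control library 1, and Dlst was -0.009 without control library 3.

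Mrpl47, a large subunit protein of a bacterial family (chromosome 3, 32725397 to 32737605), stood at 12.2, 13.0 and 13.5 FPKM with CTLA4-Ig and 16.9, 15.6 and 15.9 in controls. Again no library of one group reached the other. The means were 12.9 ± 0.650 and 16.1 ± 0.698 FPKM (SD, n = 3), and the log2 fold change -0.30 ± 0.07 (SE). Its GENCODE start lies 615 bases from that of Ndufb5, a gene of respiratory complex I. Some exons of Mrpl47 overlap those of Ndufb5 and Actl6a on the opposite strand. Ndufb5 stood at 78.5, 69.6 and 82.3 against 80.3, 89.5 and 85.1 FPKM, a log2 fold change of -0.15 ± 0.08 (SE), with groups that overlapped, and -0.08 without CTLA4-Ig library 2.

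In the small subunit, Mrps28 (chromosome 3, 8802146 to 8923918) stood at 23.0, 20.3 and 23.6 FPKM with CTLA4-Ig and 26.4, 25.2 and 27.3 in controls. Its log2 fold change was -0.23 ± 0.07 (SE), with CTLA4-Ig library 2 the lowest. Mrps24 (chromosome 11, 5703983 to 5715680), which belongs to a family at the entry of the messenger RNA, stood at 36.7, 37.5 and 36.8 against 44.0, 38.0 and 42.5 FPKM. The CTLA4-Ig libraries were nearly equal and control library 2 lay just above them, for a log2 fold change of -0.16 ± 0.07 (SE). Mrps21 (chromosome 3, 95862634 to 95871519) was the Mrps gene on the higher side, at 235, 231 and 221 against 204, 218 and 206 FPKM. The lowest CTLA4-Ig library exceeded the highest control by a narrow margin, and the log2 fold change was 0.13 ± 0.06 (SE).

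Mrps18b and Mrps10 were lower on average with groups that overlapped. Mrps18b stood at 22.3, 22.9 and 20.1 FPKM against 29.4, 25.5 and 20.0, a log2 fold change of -0.18 ± 0.14 (SE), with -0.055 without control library 1 and -0.32 without control library 3. Mrps10 stood at 18.2, 15.8 and 19.4 against 22.2, 18.2 and 21.3 FPKM, with -0.20 ± 0.10 (SE), and -0.12 without CTLA4-Ig library 2. Among the other Mrps genes the log2 fold change was -0.18 ± 0.13 (SE) for Mrps6, -0.13 ± 0.11 for Mrps30 and 0.01 ± 0.09 for Mrps18a. On the positive side it was 0.10 ± 0.06 (SE) for Mrps16, 0.07 ± 0.07 for Mrps18c, 0.07 ± 0.06 for Mrps33 and 0.06 ± 0.07 for Mrps11. Single libraries weighed on most of these values. Mrps6 went from -0.30 without control library 1 to -0.10 with CTLA4-Ig library 1 left out, and was -0.11 without control library 2, and Mrps30 from -0.21 without CTLA4-Ig library 1 to -0.03 without CTLA4-Ig library 2. Mrps18a was -0.07 without CTLA4-Ig library 3 and 0.08 without CTLA4-Ig library 2, so it had no settled sign. Mrps16 was 0.06 without CTLA4-Ig library 1 and 0.15 without CTLA4-Ig library 3. Leaving out control library 3 gave 0.015 for Mrps18c, 0.03 for Mrps33 and 0.03 for Mrps11, while 0.13 for Mrps18c came without control library 1. Leaving out CTLA4-Ig library 1 gave 0.11 for Mrps33 and 0.10 for Mrps11, and leaving out CTLA4-Ig library 3 gave 0.04 for both.

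In the large subunit, Mrpl12 (chromosome 11, 120484613 to 120489065) belongs to the stalk that recruits translation factors. It stood at 64.6, 61.1 and 67.1 FPKM with CTLA4-Ig and 67.9, 70.2 and 75.6 in controls, a log2 fold change of -0.15 ± 0.06 (SE). The gap between the nearest libraries of the groups was small. Mrpl1, of the family that forms the stalk beside the tRNA exit site, stood at 7.86, 6.96 and 8.05 against 8.99, 8.15 and 8.19 FPKM, and had -0.13 ± 0.08 (SE), and -0.075 without CTLA4-Ig library 2. The values of Mrpl37, found only in mitochondria, were 26.1, 24.6 and 26.2 against 28.9, 27.2 and 27.2 FPKM, a log2 fold change of -0.11 ± 0.06 (SE).

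Mrpl51 and Mrpl50, also found only in mitochondria, had log2 fold changes of -0.10 ± 0.06 and -0.06 ± 0.06 (SE), with -0.065 for Mrpl51 without CTLA4-Ig library 1 and -0.03 for Mrpl50 without control library 2. Mrpl50 shows how little a lack of overlap can mean: its libraries stood at 13.2, 13.2 and 13.4 against 13.6, 14.4 and 13.5 FPKM. Mrpl13 stood at 52.3, 52.1 and 57.4 against 51.0, 51.3 and 50.4 FPKM, a log2 fold change of 0.08 ± 0.06 (SE), and was the Mrpl gene on the higher side without overlap. Its value was 0.035 without CTLA4-Ig library 3. Mrpl14 had the highest log2 fold change of the Mrpl genes, 0.13 ± 0.07 (SE), with control library 3 at 56.3 FPKM among CTLA4-Ig libraries at 54.9 to 59.9, and 0.07 without control library 1. Mrpl52 had -0.23 ± 0.17 (SE), with -0.04 without control library 1 and -0.37 without control library 2, and Mrpl21 had -0.21 ± 0.10, with CTLA4-Ig library 1 at 23.8 FPKM among controls at 23.2 to 24.9. Without CTLA4-Ig library 3 Mrpl21 had -0.125.

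**Figure D2:**
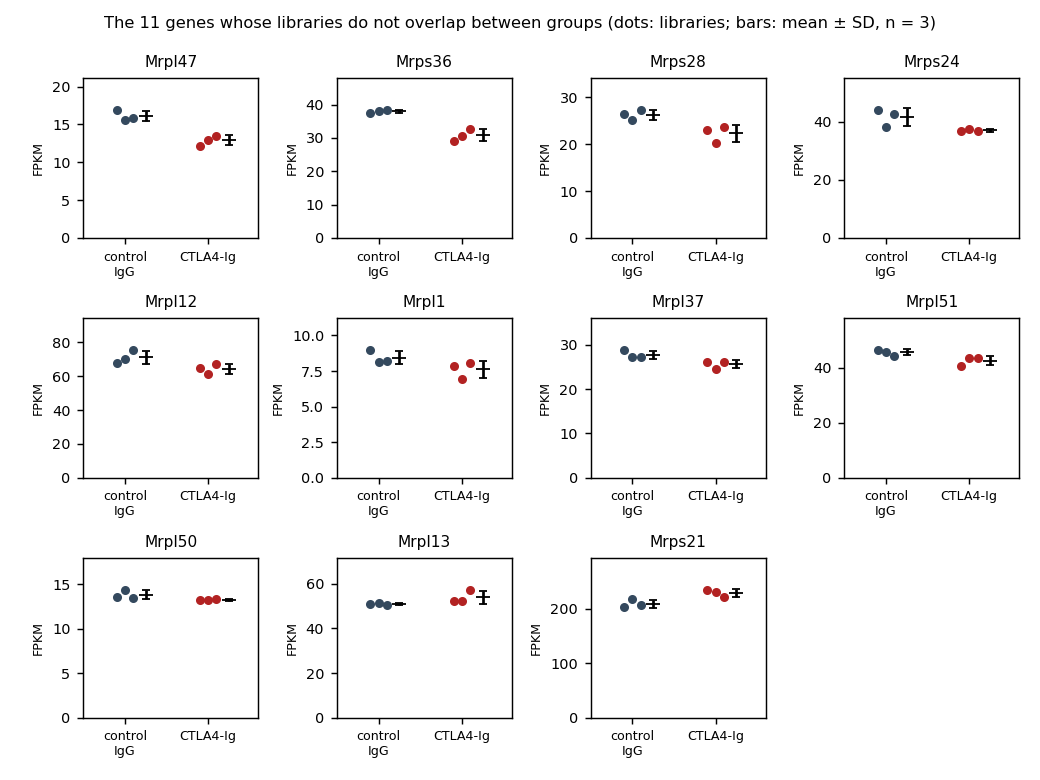
FPKM in each library (dots, 3 per group) with mean ± SD for the 11 genes whose libraries did not overlap between the groups; each axis starts at 0. The widest separations are those of Mrpl47 (12.9 against 16.1 FPKM) and Mrps36 (30.9 against 38.0 FPKM), and in Mrpl50 the groups nearly touch.

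Over all 76 genes the differences were small and more often negative than positive. The log2 fold change was negative for 56 of 76 (73.7%), against 52.3% of all genes, and 53 lay below the median of all genes, -0.006. It ranged from -0.30 to 0.13 with a median of -0.049, 52 genes lay within 0.1 of 0 and 71 within 0.2. The SE of a gene had a median of 0.076, and many differences were no larger than their error. Within-group SDs of the log2 values had a median of 0.090, beside 0.115 for all genes. The family also lay higher in level (median 32.4 against 14.4 FPKM), and genes of like level were not compared.

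**Figure D3:**
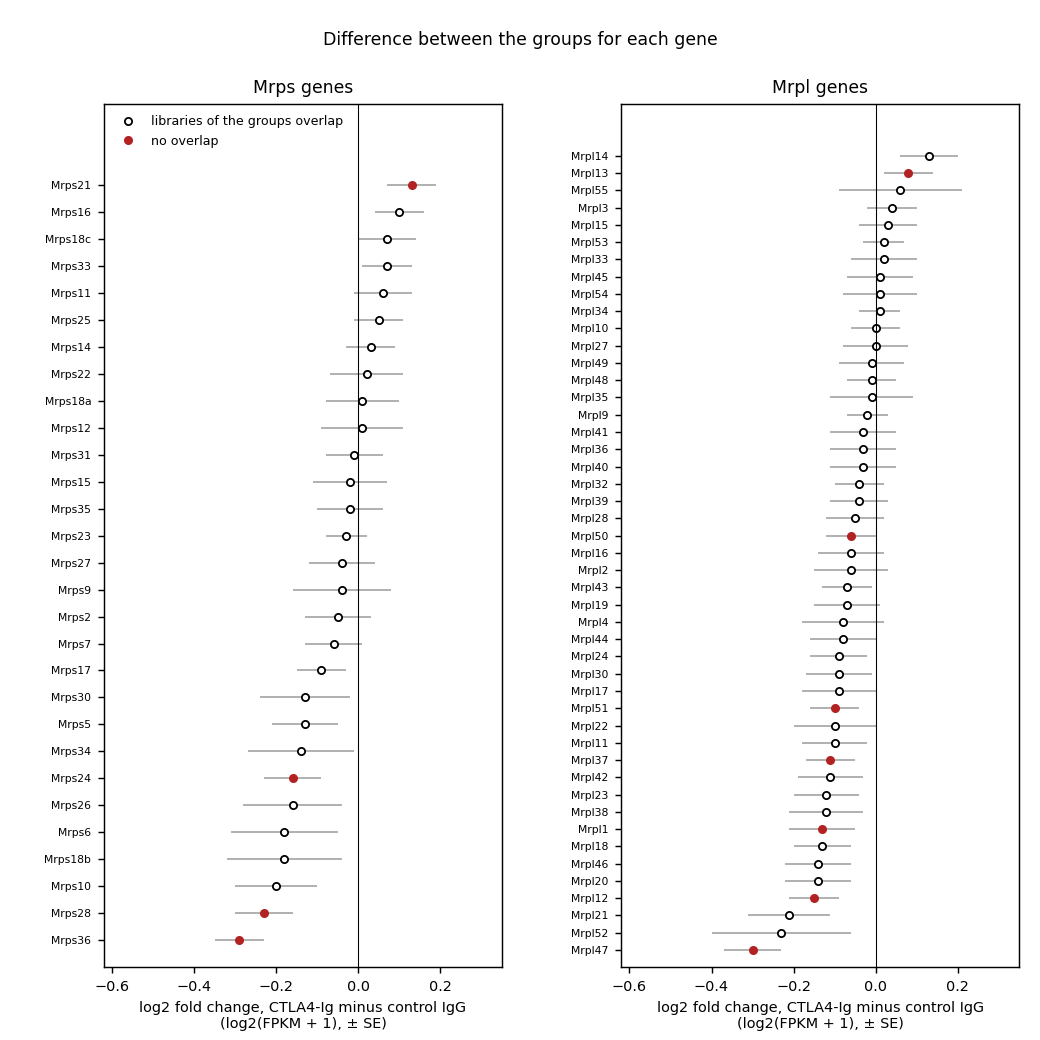
Log2 fold change of CTLA4-Ig minus control IgG on log2(FPKM + 1) for each Mrps and Mrpl gene, with SE as grey bars; filled points are genes whose libraries did not overlap. Mrps36 (-0.29) and Mrpl47 (-0.30) lie at the lower ends, and 52 of 76 genes lie within 0.1 of 0.

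Small against large subunit, the median log2 fold change was -0.036 for Mrps genes, 19 of 29 of them negative, and -0.059 for Mrpl genes, 37 of 47 negative. The difference of the medians, 0.023, was not tested. A related measure was the median deviation of the genes from their own mean, Mrps minus Mrpl, in each library. It was 0.010, 0.003 and 0.019 with CTLA4-Ig and -0.007, -0.002 and 0.003 in controls, with an SD of 0.007 between replicates. This is not the same quantity as the 0.023, so the SD does not give the error of that value. Without CTLA4-Ig library 1 the Mrps median was -0.070, the Mrpl median -0.065 and their difference -0.005, and the difference was 0.013 without control library 3 and 0.012 without CTLA4-Ig library 2. With Mrps30 and Mrps18a placed in the large subunit and Mrps36 in neither, the difference was 0.026. By origin the medians were -0.042 and -0.027 for small subunit genes of bacterial families and for those found only in mitochondria, and -0.061 and -0.059 for the same classes of the large subunit.

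The libraries did not contribute equally. CTLA4-Ig library 2 was the lowest of the 6 for 29 of 76 genes and control library 1 the highest for 31. The median deviation of the genes from their own mean over 6 libraries was -0.012, -0.062 and 0.003 on the log2 scale in the CTLA4-Ig libraries, and 0.066, 0.007 and 0.010 in the controls. By this median CTLA4-Ig library 3 lay beside control libraries 2 and 3. By the mean log2 level of the genes it lay beside CTLA4-Ig library 1 and below every control. Those means were 4.980, 4.917 and 4.979 with CTLA4-Ig and 5.045, 5.000 and 5.006 in controls. Mrps and Mrpl genes had like deviations, with medians of -0.060 and -0.063 in CTLA4-Ig library 2 and 0.061 and 0.069 in control library 1. Without CTLA4-Ig library 2 the median log2 fold change of the 76 genes was -0.031 and 48 were negative, and without control library 1 it was -0.034 and 52 were negative. The mean log2 level of neutrophil markers was 9.93, 10.26 and 10.14 with CTLA4-Ig and 9.81, 9.72 and 9.48 in controls, highest in CTLA4-Ig library 2. Their part in the differences was not tested. In bulk RNA, fewer cells of a type and less RNA per cell cannot be told apart.

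**Figure D4:**
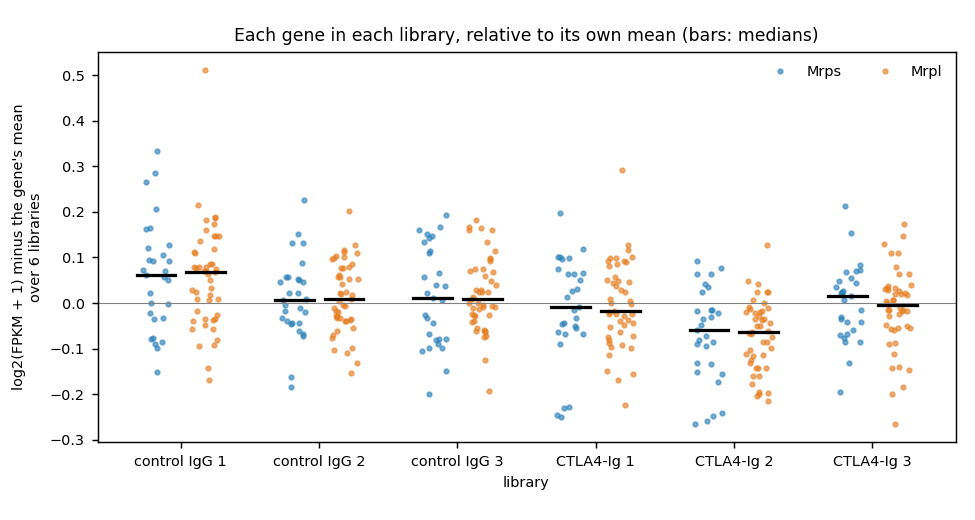
Log2(FPKM + 1) of each gene minus its own mean over the 6 libraries, for Mrps (blue) and Mrpl (orange) genes, with bars at the medians. Both classes sit highest in control library 1 (medians 0.061 and 0.069) and lowest in CTLA4-Ig library 2 (-0.060 and -0.063).

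The other parts of the mitochondrial translation pathway showed small differences of the same order, and 0 genes of any of these lists passed in limma. Mitochondrial ribosomal proteins with other names (Dap3, Ptcd3, Aurkaip1, Chchd1, Gadd45gip1, Ict1 and Mrp63) had 5 of 7 negative and a median log2 fold change of -0.060. That median was -0.103 without CTLA4-Ig library 1, -0.101 without control library 1 and -0.017 without CTLA4-Ig library 2. Among them Ptcd3, a small subunit protein, stood at 17.5, 15.5 and 16.4 against 17.8, 19.1 and 19.1 FPKM, a log2 fold change of -0.17 ± 0.07 (SE). Gadd45gip1, of the large subunit, had -0.16 ± 0.07. Assembly factors and rRNA modifying enzymes had 17 of 25 negative and a median of -0.040, and -0.062 without control library 2. The factors Rbfa and Ddx28 went opposite ways: Rbfa, which helps the small subunit mature, stood at 74.3, 81.7 and 79.9 against 66.7, 69.1 and 62.6 FPKM, a log2 fold change of 0.25 ± 0.06 (SE). Ddx28, a helicase for the large subunit, stood at 9.94, 8.76 and 10.8 against 17.6, 11.7 and 11.6 FPKM, a log2 fold change of -0.41 ± 0.17 (SE), with control library 1 far above the rest, and -0.23 without it. Both had a Benjamini-Hochberg adjusted p above 0.05 in limma (0.7196 and 0.8019).

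Mitochondrial translation factors had 12 of 12 negative, with a median of -0.062, and -0.114 without CTLA4-Ig library 3. Mtif2, the initiation factor, stood at 8.16, 8.12 and 8.43 against 10.3, 9.20 and 10.3 FPKM, a log2 fold change of -0.24 ± 0.07 (SE), and Gfm2, which helps recycle the ribosome, had -0.17 ± 0.07. For both the groups did not overlap, and limma's Benjamini-Hochberg adjusted p was 0.7196 and 0.7841. Mitochondrial aminoacyl-tRNA synthetases had 15 of 17 negative and a median of -0.126, with -0.25 ± 0.09 (SE) for Fars2. That median was -0.075 without CTLA4-Ig library 2. Genes of mitochondrial DNA and RNA synthesis and processing had 12 of 16 negative and a median of -0.034, with -0.20 ± 0.09 (SE) for Lrpprc, which stabilises mitochondrial mRNAs, and -0.24 ± 0.11 for Polg2. Leaving out CTLA4-Ig library 2 gave a median of -0.020 and -0.13 for Lrpprc, leaving out CTLA4-Ig library 1 or control library 3 gave a median of -0.055, and leaving out control library 2 gave -0.15 for Polg2. The mRNAs encoded by the mitochondrial genome itself were not analysed here.

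Beside them, cytosolic ribosomal proteins had 74 of 76 negative and a median of -0.086. Leaving out control library 1 gave -0.020 and CTLA4-Ig library 2 gave -0.033. Leaving out control library 2 gave -0.136 and CTLA4-Ig library 3 gave -0.160. Nuclear genes of oxidative phosphorylation had 52 of 75 negative and a median of -0.027, with 0.18 ± 0.07 (SE) for Ndufb7 and 0.13 ± 0.05 for Ndufa13 on the positive side. The median of that list was -0.003 without CTLA4-Ig library 2, -0.016 without control library 1 and -0.043 without CTLA4-Ig library 3. Mitochondrial protein import had 18 of 24 negative and a median of -0.052 (-0.031 without control library 1), with -0.17 ± 0.07 (SE) for Pmpcb, a subunit of the protease that removes import signals. Of 9 regulators of mitochondrial biogenesis, Ppargc1a and Ppargc1b had means under 1 FPKM (0.0205 and 0.800) and were not tested. Of the other 7, 4 were negative, with a range of -0.24 to 0.05 and a median of -0.017. The sign of this median is not settled. It was 0.037 when CTLA4-Ig library 3 was omitted and 0.007 when control library 2 was. Omitting CTLA4-Ig library 2 took it to -0.056. Myc had -0.24 ± 0.08 (SE), at 23.2, 26.4 and 22.7 against 29.5, 29.0 and 27.2 FPKM. Cell cycle genes had 9 of 25 negative and a median of 0.017, which was -0.011 without control library 1, 0.010 without control library 2, -0.001 without CTLA4-Ig library 2 and 0.002 without CTLA4-Ig library 3. The differences between these lists and the mitochondrial ribosomal proteins were not tested.

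**Figure D5:**
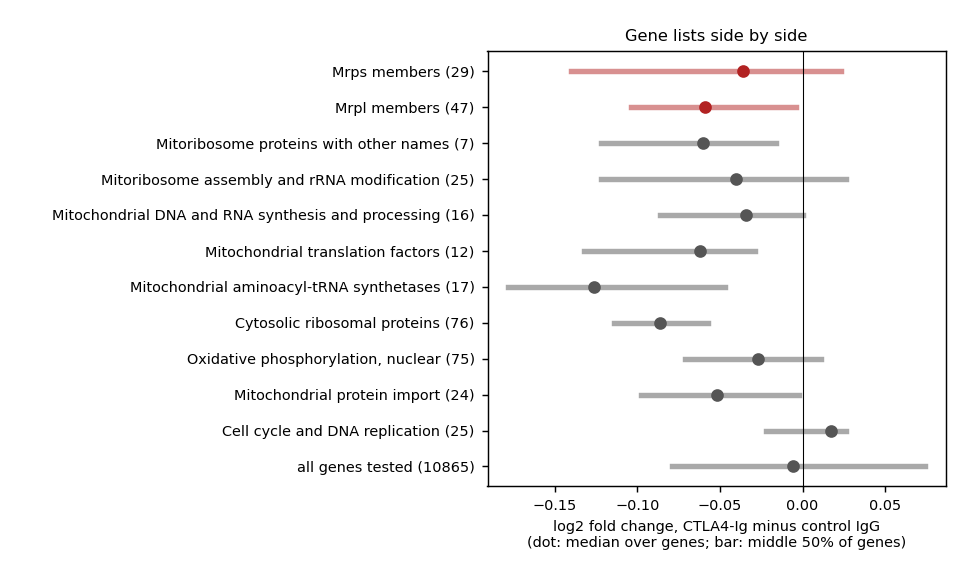
Median log2 fold change of CTLA4-Ig minus control IgG (dots) and the middle 50% of genes (bars) for the Mrps and Mrpl genes (red) and related lists (grey), with the number of genes in parentheses. The medians of both classes, -0.036 and -0.059, lie between that of all genes (-0.006) and that of the mitochondrial aminoacyl-tRNA synthetases (-0.126).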

How the data were processed

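RNA-seq libraries were made from total RNA with a stranded mRNA kit, per the labels' protocols. The deposited values are FPKM, 1 per gene name and library, and TopHat2 2.0.13, Bowtie2 2.2.3, SAMtools 0.1.19, Cuffnorm 2.2.1 and build mm10 are named in the submitters' processing notes. For annotation and strand, nothing is given in the sources used here. From the deposited FPKM, log2(FPKM + 1) was computed. Then limma 3.58.1 (R 4.3.3, a trend, group as the only factor) was run over the 10865 genes averaging at least 1 FPKM, with Benjamini-Hochberg adjustment at 0.05. The fit was checked on simulated data with changes larger than any of the Mrps and Mrpl genes. That check therefore does not show whether changes of their size could be found. Python 3.11.15 with pandas 2.3.3 was used for counts, annotation and figures. Depth was read from protein-coding genes with 1 annotated transcript of at least 1500 bases and a 0 in at least 3 libraries; 61.8 to 72.9% of their values under 5 fragments were whole within 0.1, so no counts were rebuilt. Groups came from the titles. The genes, lists and rules were chosen with earlier results of these data known. Named were Mrps36, Mrpl47, the Mrps18 genes and Mrps30, the extremes of level and of log2 fold change in each name class, and the 2 genes with the smallest unadjusted p of each list, of which the text gives a part; Mrps24, Mrpl1, Mrpl37, Mrpl50 and Mrpl51 were named after their values were seen, as were genes given as neighbours or markers. The alternatives were other pseudocounts, filters, scalings, priors and weights, omission of each library in turn and a replicate block.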

Additional observations from a re-analysis of the deposited data

How the results depend on the processing

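The median log2 fold change of the 76 genes was negative under every alternative run (-0.068 to -0.031 when 1 library was left out, -0.053 with quantile normalization and -0.040 with array weights, against -0.049). The count of negative genes was 48 to 60 with 1 library left out and 53 against the median of all genes, against 56. The difference of medians between Mrps and Mrpl genes was 0.013 with array weights and ranged from -0.005 to 0.021 with 1 library left out, so its sign is not settled; the cause was not tested. Whether same-numbered libraries were paired is not known. Deviations from the group means correlated at -0.154 to -0.0235 between same-numbered libraries and at -0.0389 to 0.132 between the others (Pearson's r across genes). Deviations within a group sum to 0, which constrains these values, so they cannot decide the pairing. The replicate block left the median at -0.049 and gave 4 lower genes at an unadjusted p under 0.05 in limma, against 3; it changed no call. That count was 5 with no filter on low values, 7 with array weights and 3 to 7 with 1 library left out (7 without control library 1, 6 without control library 2). For higher genes it was 1 with no filter and 0 to 2 with 1 library left out (2 without CTLA4-Ig library 3), against 0. Without 1 library, 11 to 22 genes had no overlap, against 11, with fewer libraries to overlap. For the counts at an unadjusted p and of no overlap, shares over all genes were not taken under the alternatives. They show only how far the counts move, and nothing about the family. Over all genes limma called 0 to 6 with 1 library left out (6 without CTLA4-Ig library 3), against 0, and 0 of the 76 were called under any alternative. The authors' values already had equal median ratios (size factors of 1.002 to 1.004). Rescaling by them left each count unchanged and each median within the spread between replicates. The depth of 8670000 to 10580000 fragments and 3 libraries a group left a median SE of 0.076 for a gene, which limits what can be said of single genes.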
